A study of Mus musculus with 2 samples.

Results

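The C1q+ tumor macrophages described here were 101 of the 9844 cells within the quality limits, or 1.03%, of a pool sorted as T cells from mouse melanomas. They were chosen by at least 3 UMIs (counted RNA molecules) of *C1qa*, *C1qb* and *C1qc* together, no UMI of *Cd3d*, *Cd3e* or *Cd3g*, and fewer than 20 UMIs of the melanocyte genes *Pmel*, *Mlana*, *Dct* and *Tyrp1*. Because the cells were selected on these genes, their values for them only describe the choice. The tumors were grown from B16 melanoma cells, or from B16–IL-33 cells that were engineered to secrete IL-33, injected into the skin of the flank of C57BL/6J mice that received no other treatment. Cells were enriched on CD45, sorted on TCR-β, a gate that should hold no macrophages, tagged with hashtag antibodies by tumor and read as 5′ gene expression with TCR sequences. The tumors of this model were implanted, and the level of IL-33 was set by the engineered line. The labels give neither the age of the mice nor the number pooled. All cells came in 1 pooled library without replicates, so each interval below is a 95% interval that covers counting error only.

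Macrophages of tumors come from blood monocytes and from cells resident in the tissue, and they take up dead cells, present antigen and release chemokines. The C1q genes encode the subunits of the complement protein C1q, which binds dead cells and immune complexes and is made chiefly by mature macrophages. CSF1R is the receptor for the growth factor that keeps monocytes and macrophages alive.

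The macrophages held 840980 UMIs in all, with a median of 5043 UMIs per cell that ranged from 388 to 66230. A median of 1550 genes, from 278 to 5847, was detected in each. The deepest macrophage gave 7.88% of their UMIs and the deepest 10 gave 34.8%. Mitochondrial genes took a median of 2.20% of the UMIs of a macrophage. Levels, in CPM, are summed UMIs of a group divided by its total UMIs and scaled to counts per 1e6, so deep cells weigh more than shallow ones. The macrophages were compared with 63 cells that had at least 1 UMI of *Csf1r* and none of the C1q or CD3 genes, called *Csf1r* comparators, to ask how they differed from myeloid cells without C1q. These comparators held 365899 UMIs, with a median of 5025 per cell. They were also compared with 8929 T cells that had at least 1 CD3 UMI and fewer than 3 C1q UMIs, with a median of 2661 UMIs, which gave the level of each gene in cells of another type.

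The C1q genes lie side by side on chromosome 4 of GRCm38, *C1qb* (ENSMUSG00000036905) at 136880129 to 136886187. The macrophages held a median of 15 C1q UMIs, from 3 to 505, and *C1qb* was found in all 101. At the edge of the choice, 27 macrophages had 3 or 4 C1q UMIs, with a median of only 613 UMIs in all. The deepest of them held 24874 UMIs, as the C1q limit was a count and not a share of a cell's UMIs. *Lyz2*, which encodes lysozyme, was found in 74.1% of these 27, and *Csf1r* in 18.5%. Among the 74 macrophages with at least 5 C1q UMIs, these shares were 91.9% and 64.9%. Just outside the choice, 61 cells had 1 or 2 C1q UMIs and no CD3 UMI, with a median of 890 UMIs, and 54.1% of them had *Lyz2* and 21.3% *Csf1r*. A further 169 cells had at least 3 C1q UMIs but also a CD3 UMI, and 38.5% of those carried a productive TCR contig. No caller of doublets was run, and these mixed cells were left out by the CD3 limit alone. The melanocyte limit removed 0 of the 101 cells that met the C1q and CD3 limits. The macrophages held 17 melanocyte UMIs in 16 cells and at most 2 in any cell.

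**Figure D1:**
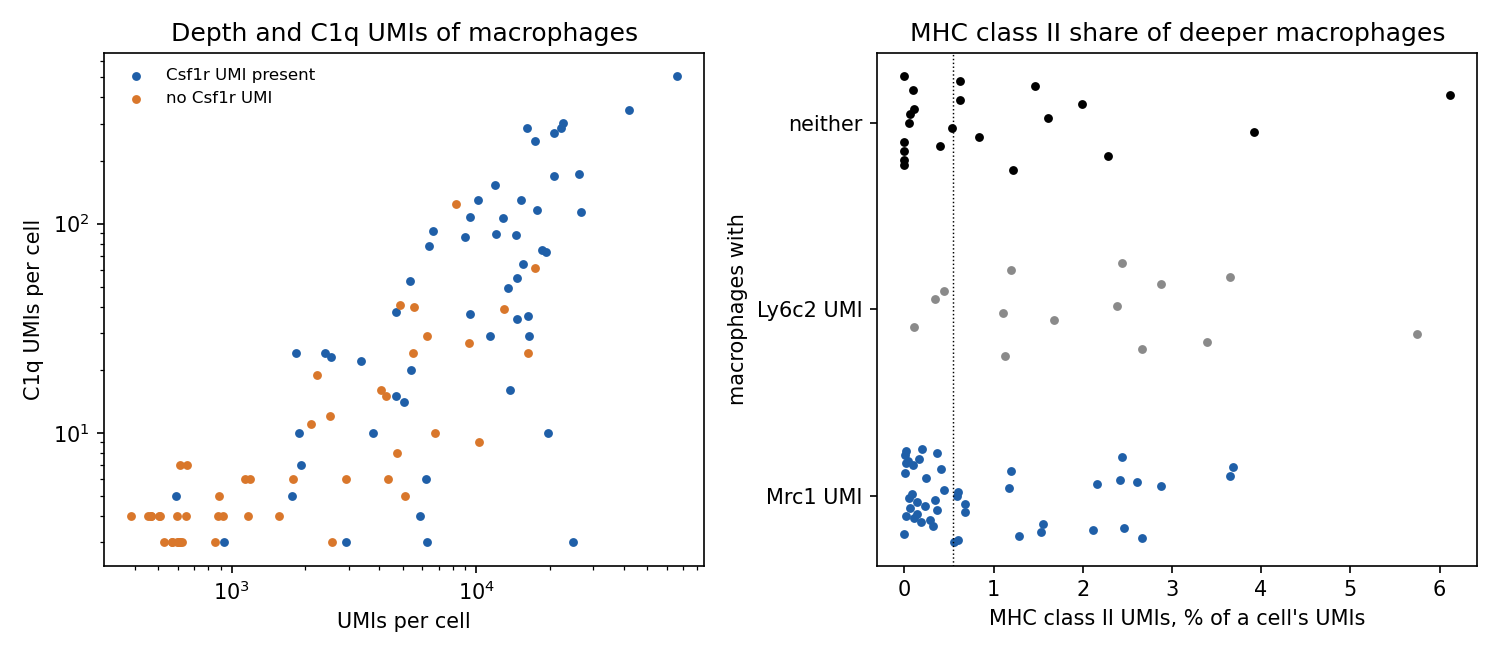
Left, UMIs of the C1q genes against all UMIs of each of the 101 macrophages, on log axes, colored by the presence of a *Csf1r* UMI. Right, MHC class II UMIs as a percentage of the UMIs of each of the 74 macrophages with at least 1500 UMIs, in rows by a UMI of *Mrc1* or *Ly6c2* before thinning, a cell with both genes drawn in both rows; the dotted line is the median, 0.546%.

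Of the 4047 genes tested against the *Csf1r* comparators (at least 30 UMIs in both groups together), 392 (9.69%) were at least 2-fold higher in the macrophages. Another 297 (7.34%) were at least 2-fold lower. Among cells with at most 2500 detected genes, the upper limit the study used, 83 of 2111 genes tested were higher, 47 of them among the 392, and 202 were lower. The median log2 ratio over the 4047 genes was 0.06. Against T cells 11529 genes were tested, of which 1987 (17.2%) were at least 2-fold higher in the macrophages and 2771 (24.0%) at least 2-fold lower, with a median log2 ratio of -0.18. With each level taken as the mean of the cells' own CPM, these medians were 0.00 and -0.33. The macrophages then had 425 genes higher and 431 lower than the comparators, of which 269 and 207 were among the 392 and 297. Of the lists below with at least 5 genes tested, only the chemokine genes then had a median over the comparators of the other sign, at 0.14. In what follows, a ratio is that of the macrophages over the *Csf1r* comparators unless T cells are named, and its counting interval stands in parentheses.

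The macrophage label was checked with 16 marker genes. Of these, 11 could be tested, the others being used in the choice or having too few UMIs, and all 11 were at least 2-fold higher in the macrophages than in T cells, with a median log2 ratio of 4.86. The 12 markers not used in the choice summed to 12770 CPM in the macrophages, 19238 CPM in the comparators and 438 CPM in T cells, with *Lyz2* the most abundant. *Csf1r*, which was used to choose the comparators, stood at 205 CPM in the macrophages, and 53 of 101 had a UMI of it. It stood at 6.20 CPM in T cells, of which 1.01% had a UMI. Against the comparators the tested markers had a median log2 ratio of -0.37, with 2 higher and 1 lower. With CPM averaged over cells, the median was -0.03, with 2 higher and 2 lower. *Adgre1*, which encodes the macrophage protein F4/80, was higher with a ratio of 2.68 (1.48–5.25). *Ms4a7*, a membrane protein of mature macrophages, had a ratio of 17.3 (7.81–47.5) and was 138-fold above T cells. After each cell was thinned to 1500 UMIs, *Ms4a7* was found in 28.4% of 74 macrophages, 3.33% of 60 comparators and 0.341% of 7326 T cells (42.6%, 7.94% and 0.605% before thinning). The lower gene was *Cd14*, the co-receptor for bacterial lipopolysaccharide, at 285 CPM and a ratio of 0.343 (0.289–0.408). *Lyz2* itself stood at 5046 CPM with a ratio of 0.587 (0.561–0.615), and *Cd68*, a lysosomal glycoprotein, at 1037 CPM with a ratio of 1.27 (1.11–1.46). With CPM averaged over cells, *Lyz2* stood at 3502 CPM in the macrophages and 9092 CPM in the comparators, past 2-fold.

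Thinning left out 27 macrophages with fewer than 1500 UMIs (388 to 1191), and these were looked at apart. *Lyz2* was found in 19 of these 27 at 2369 CPM, against 5107 CPM in the deeper macrophages and 127 CPM in T cells. The ferritin gene *Fth1* stood at 10930 CPM in the shallow macrophages, 37801 CPM in the deeper ones and 3285 CPM in T cells. Genes of T cells other than the CD3 genes were higher in the shallow cells, where the 11 others of the T cell list summed to 1454 CPM against 54.7 CPM in the deeper ones and 3790 CPM in T cells. The transcript *Gm42418*, which overlaps ribosomal RNA, made up 44904 CPM of the shallow macrophages, 14881 CPM of the deeper ones and 23318 CPM of T cells. *Csf1r* was found in 2 of the 27. The summed levels of the shallow macrophages thus lay between those of the deeper ones and T cells on *Lyz2*, *Fth1* and the T cell list, but not on every gene. Summed *Ccl8* was higher in the shallow macrophages, at 4953 CPM (3571 CPM without the cell that held 29 of its 92 UMIs) against 1883 CPM in the deeper ones. These sums do not describe each shallow cell. *Fth1* ran from 0 UMIs in a cell of 504 UMIs to 47 in a cell of 1131 UMIs, and *Ccl8* was found in 8 of the 27. Whether each of the 27 is a macrophage was not tested. Together the shallow macrophages held 18573 of the 840980 UMIs behind the summed levels.

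Genes of circulating monocytes were lower in the macrophages. Of 8 tested, 7 were at least 2-fold lower than in the comparators and none higher, with a median log2 ratio of -2.80. With CPM averaged over cells, 6 of the 8 were lower and the median was -2.74. Their summed level was 727 CPM in the macrophages and 4222 CPM in the comparators. *Plac8*, a cysteine-rich protein of monocytes and lymphocytes, had the most UMIs in the comparators and a ratio of 0.0972 (0.0819–0.115). *Ly6c2*, the surface marker of inflammatory monocytes, had a ratio of 0.129 (0.0956–0.171), which fell to 0.0631 without the macrophage that held 52.4% of its UMIs. *Ccr2*, the receptor that draws monocytes out of the marrow, had a ratio of 0.261 (0.188–0.360). With CPM averaged over cells, *Ccr2* stood at 175 CPM in the macrophages and 335 CPM in the comparators, short of 2-fold. *Vcan*, which encodes the matrix proteoglycan versican, stood at 27.3 CPM, with a ratio of 0.218 (0.126–0.366), or 0.143 without the macrophage that held 34.8%. *Nr4a1*, an immediate early gene and a factor of patrolling monocytes, had a ratio of 0.109 (0.0719–0.160). *Ace*, which encodes angiotensin-converting enzyme, gave 1 UMI in the macrophages and 32 in the comparators, a ratio of 0.0136 (0.000334–0.0814). *F13a1*, the clotting factor XIII subunit made by monocytes and some tissue macrophages, was the most abundant gene of this list in the macrophages and hardly differed, with a ratio of 0.930 (0.725–1.20).

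Receptors that clear dead cells and debris were among the genes higher in the macrophages, with 5 of 11 tested at least 2-fold higher, 1 lower and a median log2 ratio of 0.91. With CPM averaged over cells, 5 were higher, none lower and the median was 0.80. *Mrc1* (ENSMUSG00000026712, chromosome 2, 14229392 to 14332057), which encodes the mannose receptor CD206, stood at 403 CPM, with a ratio of 16.4 (8.53–36.1). It was found in 43.2% of the thinned macrophages (31.8–55.3), 3.33% of the comparators and 0.382% of T cells, and before thinning in 51.5%, 9.52% and 0.784%. *Trem2*, a receptor for lipids and apoptotic cells, stood at 416 CPM with a ratio of 3.17 (2.34–4.38) and was the most abundant gene of this list. The scavenger receptor gene *Stab1* had a ratio of 7.02 (3.30–17.9). *Gas6*, a bridge between dead cells and their receptors, gave 45 UMIs against 2, a ratio of 9.79 (2.56–83.3). *Folr2*, the folate receptor of resident macrophages, gave 86 UMIs in 23 macrophages against 1 in the comparators, a ratio of 37.4 (6.54–1495). *Cbr2*, a carbonyl reductase of the same cells, gave 72 UMIs against 0 and was at least 10.4-fold higher. *Vcam1*, an adhesion molecule, gave 38 UMIs against 0 and was at least 5.51-fold higher. The lower gene was *Clec4n*, the fungal receptor dectin-2, with a ratio of 0.409 (0.349–0.479). With CPM averaged over cells, *Clec4n* stood at 316 CPM in the macrophages and 591 CPM in the comparators, short of 2-fold. *Cd163*, the receptor for hemoglobin bound to haptoglobin, gave 14 UMIs in 2 macrophages, 64.3% of them in 1 cell, and without that cell its bound of at least 2.03-fold fell to 0.729. Of 14 markers of macrophages resident in healthy organs, which summed to 133 CPM in the macrophages, 27.3 CPM in the comparators and 1.92 CPM in T cells with *Folr2* the most abundant, 7 were absent, with *Lyve1*, *Vsig4*, *Clec4f*, *Siglecf*, *Marco*, *Gata6* and *Sall1* at 0 UMIs in the macrophages.

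**Figure D2:**
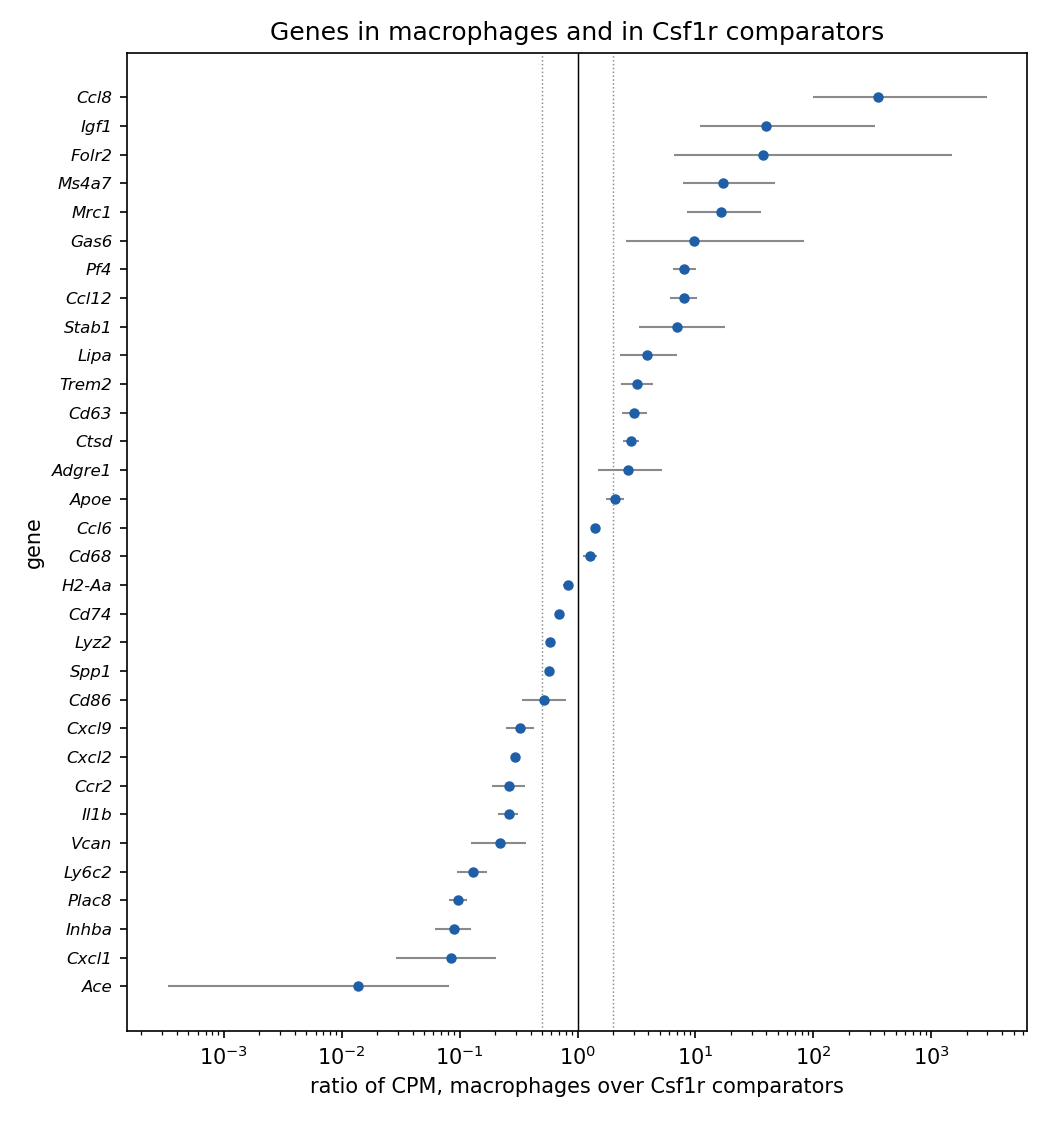
Ratio of CPM in the 101 macrophages over the 63 *Csf1r* comparators for 32 genes, on a log axis, as points with 95% counting intervals; dotted lines mark 2-fold. *Ccl8* and *Igf1* lie at the high end and *Ace* at the low end.

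Lysosomal genes summed to 27588 CPM in the macrophages, 19262 CPM in the comparators and 3416 CPM in T cells. Of 29 tested, 8 were at least 2-fold higher and none lower, with a median log2 ratio of 0.75. With CPM averaged over cells, 6 of the 29 were higher, none lower and the median was 0.54. *Ctsb*, a cathepsin and the most abundant of them, stood at 4270 CPM with a ratio of 1.98 (1.84–2.14), or 2.12 without the comparator that held 10.7%. The protease gene *Ctsd* had a ratio of 2.83 (2.44–3.30). *Cd63*, a membrane protein of late endosomes, had a ratio of 3.03 (2.39–3.88). *Lipa*, the acid lipase that frees cholesterol from lipoproteins, had a ratio of 3.86 (2.30–6.94). *Gpnmb*, a glycoprotein of phagocytes with loaded lysosomes, was found in 40 macrophages and had a ratio of 2.30 (1.89–2.83). With CPM averaged over cells, *Gpnmb* stood at 438 CPM in the macrophages and 252 CPM in the comparators, short of 2-fold. For *Ctsl*, another cathepsin, 1 macrophage gave 46.5% of the UMIs, and the ratio of 2.62 (2.31–2.99) was 1.52 without it.

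Genes of lipid handling had a median log2 ratio of 0.80, with 6 of 15 at least 2-fold higher and none lower. With CPM averaged over cells, 2 of the 15 were higher in the macrophages and the median was 0.34. *Apoe*, the lipid carrier of lipoproteins, stood at 937 CPM in the macrophages, 451 CPM in the comparators and 11.2 CPM in T cells, a ratio of 2.08 (1.75–2.47), or 1.80 without the macrophage that held 15.9% of its UMIs. *Lpl*, the lipase that releases fatty acids, had a ratio of 2.13 (1.78–2.57), or 3.65 without the comparator that held 44.1% of the comparators' UMIs. *Fabp4*, a fatty acid carrier, had a ratio of 3.36 (2.56–4.47) that fell to 1.94 without the macrophage that held 46.9% of its UMIs and rose to 6.14 without the comparator that held 46.7%. *Lgals3*, which encodes galectin-3, was the most abundant gene of this list, with 6804 CPM in the macrophages and 6843 CPM in the comparators. *Spp1*, which encodes the matrix protein osteopontin, had a ratio of 0.578 (0.540–0.618), but without the comparator that held 46.5% of the comparators' UMIs the ratio was 1.05, and without the macrophage that held 32.2% it was 0.425.

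Iron storage took a large share of the macrophage RNA. *Fth1* at 37208 CPM and *Ftl1* at 25033 CPM, the ferritin chains, were the most abundant genes of the macrophages, at 11.3 and 15.6 times their levels in T cells. Their ratios over the comparators were 1.17 (1.15–1.19) and 1.73 (1.67–1.78), the latter 2.01 without the comparator that held 17.9%. None of the 8 tested iron genes reached 2-fold, and the median log2 ratio was 0.53. *Hmox1*, the enzyme that breaks down heme, stood at 746 CPM with a ratio of 1.21 (1.04–1.42).

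The genes of MHC class II, which show peptides to CD4+ T cells, summed to 9309 CPM in the macrophages, 12566 CPM in the comparators and 1056 CPM in T cells. None of the 6 tested was past 2-fold, and the median log2 ratio was -0.38. The invariant chain gene *Cd74* stood at 4910 CPM with a ratio of 0.698 (0.664–0.733), and it was found in 79.7% of thinned macrophages and 17.8% of thinned T cells (90.1% and 26.7% before thinning). *H2-Aa*, a chain of the peptide-binding pair, had a ratio of 0.832 (0.760–0.911). Costimulatory and inhibitory ligands did not reach 2-fold in either direction in 9 of 9 tested. *Cd86*, the ligand of CD28, came nearest with a ratio of 0.518 (0.337–0.800), or 0.388 without the macrophage that held 26.0% of its UMIs. *Cd274*, which encodes PD-L1, stood at 130 CPM with a ratio of 0.790 (0.572–1.10), or 0.513 without the macrophage that held 35.8%.

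Chemokine genes made up 23864 CPM of the macrophages, 19965 CPM of the comparators and 3717 CPM of T cells, with 5 of 17 at least 2-fold higher, 5 lower and a median log2 ratio of -0.12. *Ccl8* (ENSMUSG00000009185, chromosome 11, 82115185 to 82116799), a ligand of monocyte and lymphocyte receptors, gave 1641 UMIs in 34 macrophages and 2 in the comparators. Its ratio of 357 (98.7–2950) was the highest of all genes tested, and it was 272 without the macrophage that held 24.0% of its UMIs. After thinning it was found in 28.4% of the macrophages, none of 60 comparators and 2.14% of T cells (33.7%, 3.17% and 4.28% before thinning). *Ccl12*, a neighboring gene whose product binds CCR2, stood at 1322 CPM with a ratio of 7.93 (6.13–10.4), or 14.9 without the comparator that held 49.2% of the comparators' UMIs. *Pf4*, which encodes platelet factor 4, stood at 1930 CPM with a ratio of 8.02 (6.47–10.1), or 21.8 without the comparator that held 64.8%. The most abundant chemokine gene, *Ccl6*, stood at 5900 CPM with a ratio of 1.40 (1.32–1.48). *Ccl4*, an inflammatory chemokine, had a ratio of 3.59 (3.17–4.08), or 1.96 without the macrophage that held 45.9% of its UMIs. *Ccl2*, the main ligand of CCR2, stood at 3912 CPM with a ratio of 1.12 (1.05–1.20), or 0.844 without 1 macrophage that held 30.8%. *Cxcl2*, which draws neutrophils, had a ratio of 0.292 (0.273–0.314). *Cxcl9*, which draws CXCR3+ T cells, had a ratio of 0.327 (0.248–0.431), or 0.649 without the comparator that held 50.4% of the comparators' UMIs.

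Inflammatory genes were lower in the macrophages, with 6 of 9 at least 2-fold lower, 1 higher and a median log2 ratio of -1.21. They summed to 1044 CPM in the macrophages, 2473 CPM in the comparators and 107 CPM in T cells. *Il1b*, the cytokine IL-1β, had a ratio of 0.260 (0.213–0.315) and was found in 16 macrophages. It moved to 0.138 without the macrophage that held 48.5% and to 0.429 without the comparator that held 42.8%. *Ptgs2*, the enzyme that starts prostaglandin synthesis, had a ratio of 0.431 (0.326–0.569), or 0.664 without the comparator that held 36.4% of the comparators' UMIs. *Nlrp3*, the sensor that assembles the inflammasome, had a ratio of 0.183 (0.0954–0.336). *Acod1*, which makes itaconate, was the higher gene with a ratio of 2.20 (1.35–3.75), and it stood at 1.10 without the macrophage that held 51.5% of its UMIs and at 3.77 without the comparator that held 45.0%. The cytokine genes *Il6*, *Il12a* and *Il12b* had no UMI in the macrophages. *Nos2*, the inducible nitric oxide synthase, stood at 84.4 CPM with a ratio of 0.753 (0.506–1.14).

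Genes tied to alternative activation by IL-4 and IL-13 were split, with 3 of 13 higher, 3 lower and a median log2 ratio of 0.20. *Retnla*, a secreted protein induced by IL-4, came from 6 macrophages, 54.7% of its UMIs from 1 of them, and its ratio was 9.67 (5.57–18.4), or 4.41 without that cell and 62.7 without the comparator that held 84.6% of the comparators' UMIs. That macrophage held 158 of the 289 UMIs, and another, of 931 UMIs in all, held 112. The ratio without both was not computed, so the place of *Retnla* among the higher genes rests largely on these cells. *Chil3*, a chitinase-like protein, was lower with a ratio of 0.160 (0.112–0.226), or 0.0420 without the macrophage that held 73.9% of its UMIs. *Il10* gave 3 UMIs in the macrophages, or 3.57 CPM, against 49.6 CPM in T cells.

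The interferon-induced genes had a median log2 ratio of -0.59, with 2 of 21 higher and 9 lower. *Gbp2*, a guanylate-binding protein, had a ratio of 0.252 (0.196–0.321). Both higher genes owed their place to 1 macrophage, since *Ifit3*, which binds viral RNA, fell from 2.72 (1.47–5.50) to 1.47 without the macrophage that held 46.7% of its UMIs, and its relative *Ifit2* from 2.04 (1.11–4.05) to 1.12 without 1 that held 45.9%. *Ifnb1*, the gene of interferon β, gave 223 UMIs in the macrophages and 0 in the comparators, but 97.8% came from 1 macrophage. Without that cell its bound of at least 32.3-fold fell to 0.733.

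Growth factor genes had a median log2 ratio of -0.59, with 1 of 10 tested higher in the macrophages and 3 lower, or a median of -0.14 with 1 higher and 2 lower when CPM was averaged over cells. *Igf1*, which encodes insulin-like growth factor 1, gave 183 UMIs in 28 macrophages and 2 in the comparators, a ratio of 39.8 (10.9–331). It was 148-fold above T cells. *Inhba*, the activin A subunit, had a ratio of 0.0891 (0.0624–0.125). *Thbs1*, which encodes the matrix protein thrombospondin-1, had a ratio of 0.330 (0.280–0.390), or 0.219 without the macrophage that held 34.7%, and the angiogenic factor *Vegfa* 0.467 (0.317–0.690), or 0.562 without the comparator that held 18.5%. Genes of the AREG, EGFR and IL-33 axis, which the study followed in T_reg_ cells and fibroblasts, summed to 71.3 CPM in the macrophages, 139 CPM in the comparators and 447 CPM in T cells. *Areg*, the EGFR ligand amphiregulin, gave 5 UMIs in 3 macrophages, or 5.95 CPM against 349 CPM in T cells. *Il1rl1*, the receptor of IL-33, gave 1 UMI in the macrophages, or 1.19 CPM against 53.2 CPM in T cells. *Egfr*, *Erbb2*, *Ereg*, *Btc*, *Tgfa* and *Il33* had no UMI in the macrophages, which at 840980 UMIs leaves lower levels undetectable.

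Cytokine receptor genes other than *Csf1r* had a median log2 ratio of -0.71, with 6 of 13 lower and none higher. Of 6 tested genes of chemokine receptors and related receptors, 3 were lower (1 with CPM averaged over cells) and none higher, with a median log2 ratio of -0.67 (-0.17 averaged), among them *Ccr1*, a receptor of several CC chemokines, at 0.488 (0.359–0.666), or 0.516 without the comparator that held 9.76% of the comparators' UMIs. Innate sensors had a median log2 ratio of -0.58, with 3 of 11 lower and none higher. Of the 6 Fc receptor genes, which bind antibody, none was lower and 1 was higher, *Fcgrt*, which recycles antibody, at 2.03 (0.974–4.74), or 1.72 without the macrophage that held 16.7% of its UMIs. *Fcgr3*, an activating receptor, stood at 554 CPM with a ratio of 1.14 (0.956–1.36). *Csf2rb*, the shared chain of the GM-CSF and IL-3 receptors, had a ratio of 0.315 (0.231–0.427), and *Il13ra1*, a chain of the IL-13 receptor, 0.326 (0.191–0.553). Transcription factor genes had a median log2 ratio of -0.69, with 3 of 23 lower and none higher. *Spi1*, which encodes PU.1, the factor that drives myeloid identity, stood at 452 CPM with a ratio of 0.807 (0.679–0.961) and was 24.6-fold above T cells. *Maf*, a factor of resident macrophages, had a ratio of 1.67 (1.24–2.26). *Fos*, an immediate early gene, was lower with a ratio of 0.445 (0.402–0.492). Genes of hypoxia and glycolysis were close to even in the macrophages, with 1 of 17 lower, none higher and a median log2 ratio of -0.07. *C3*, the central complement protein, was the only tested complement gene past 2-fold, with a ratio of 0.306 (0.197–0.472).

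Cell cycle genes were higher in the macrophages than in the comparators in 11 of 12 tested, with a median log2 ratio of 2.11. With CPM averaged over cells, 10 of the 12 were higher and the median was 1.36, and over T cells the median moved from -0.01 to 0.73. The cell cycle genes summed to 2044 CPM in the macrophages, 708 CPM in the comparators and 2155 CPM in T cells. *Stmn1*, which destabilizes microtubules at mitosis, was found in 29 macrophages with a ratio of 7.70 (4.09–16.3), or 12.7 without the comparator that held 40.0%. *Mki67*, the marker of cycling cells, was found in 16 macrophages with a ratio of 4.23 (1.94–10.9), or 2.81 without the macrophage that held 36.8% of its UMIs and at least 9.75 without the comparator that held all 7 of theirs. *Pcna*, the clamp of DNA polymerase, was found in 34 macrophages with a ratio of 3.45 (1.97–6.52). After thinning, *Mki67* was found in 9.46% of macrophages (3.89–18.5), 1.67% of comparators and 5.83% of T cells (15.8%, 1.59% and 11.2% before thinning).

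**Figure D3:**
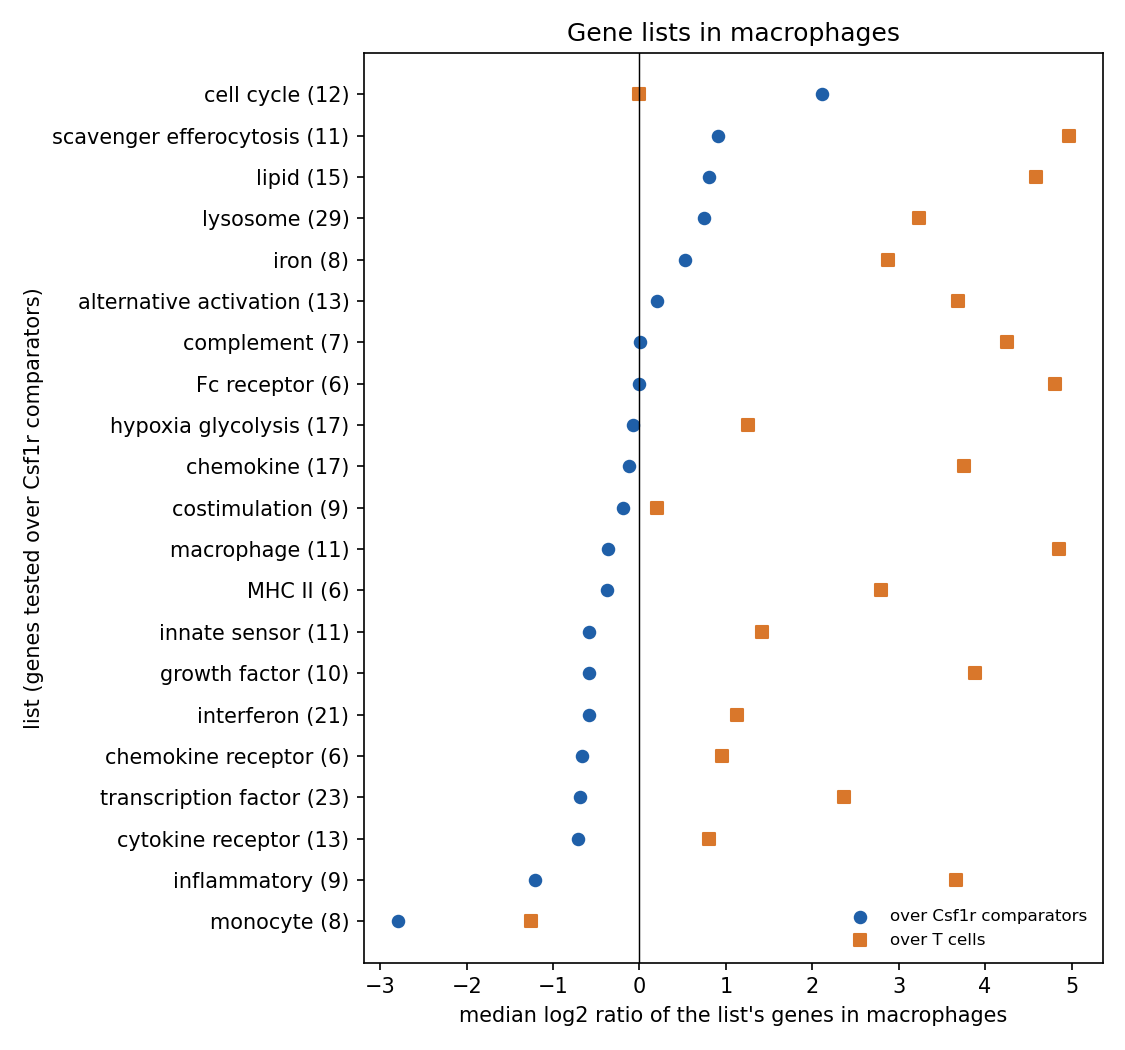
Median log2 ratio of the genes of each list with at least 5 genes tested, in the macrophages over the *Csf1r* comparators (circles) and over T cells (squares), with the number of genes tested over the comparators after each name. Cell cycle genes lie at 2.11 over the comparators and monocyte genes at -2.80.

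Markers of other cell types were low in the macrophages, though dendritic cell lists other than the migratory one stood above their levels in T cells. The T cell list without the CD3 genes summed to 85.6 CPM in the macrophages, 84.7 CPM in the comparators and 3790 CPM in T cells, with *Trac*, a constant gene of the T cell receptor, at 16.6 CPM in the macrophages. All 11 tested T cell genes were at least 2-fold lower than in T cells. The choice favors this result, since the macrophages had to have no CD3 UMI and T cells at least 1. B cell genes summed to 29.7 CPM, with *Ms4a1* at 0, and natural killer cell genes to 13.1 CPM, with *Ncr1* and *Gzma* at 0. Neutrophil genes summed to 16.6 CPM with 4 of 6 at 0, and mast cell genes to 2.38 CPM with 5 of 6 at 0. Fibroblast genes summed to 1.19 CPM with 6 of 7 at 0, endothelial genes to 19.0 CPM, and the keratin genes *Krt5* and *Krt14* had no UMI. Dendritic cell genes were present at low levels, at 146 CPM for the list of the *Xcr1*+ type, against 161 CPM in the comparators and 13.5 CPM in T cells. In this list *Naaa*, a lysosomal amidase, gave the most and *Xcr1* itself was at 0. A second dendritic cell list (cDC2) stood at 54.7 CPM, 109 CPM and 13.6 CPM. The plasmacytoid dendritic cell list stood at 48.8 CPM, 19.1 CPM and 7.88 CPM, and its gene *Tcf4* had a ratio of 2.11 (0.922–5.65). Genes of migratory dendritic cells summed to 3.57 CPM in the macrophages, against 88.4 CPM in T cells and 115 CPM in the comparators, where 1 cell held 90.5% of their UMIs and the level without it was 11.2 CPM. Melanoma genes, which include the 4 of the choice, summed to 27.3 CPM in the macrophages, 19.1 CPM in the comparators and 13.4 CPM in T cells. Hemoglobin genes were 1 UMI in the macrophages, and the 749 UMIs of *Hbb-bs* in the comparators came from 1 cell.

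A productive TCR contig was found for 2 of the 101 macrophages, or 1.98% (0.241–6.97), against 66.1% of T cells. The CD3 limits on both groups favor this difference. The contigs of the 2 macrophages rested on 4 and 3 UMIs, in cells with 14645 and 6741 UMIs of gene expression. *Trac*, *Trbc1* or *Trbc2* gave 19 UMIs in 16 macrophages. Tumor tags were read for few cells, as 86 of the macrophages had a barcode in the hashtag library and 16 had a tag UMI. Of these, 15 carried a tag of B16 tumors and 1 a tag of B16–IL-33 tumors, a share of 6.25% (0.158–30.2), against 139 of 949 tagged T cells, or 14.6% (12.5–17.1). With at least 2 tag UMIs the share of T cells was 2.02% (0.246–7.11), or 2 of 99, so the share depended on this limit. Only 1 macrophage had at least 2 tag UMIs, so no comparison between the tumors was made. Among the tags, the oligo of the tag named B16_1 gave 12 of the 17 tag UMIs in macrophages.

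Differences among the macrophages were described in the 74 with at least 1500 UMIs, split by a UMI of a gene after thinning. *Mrc1* was found in 32 of them, whose median depth of 11610.5 UMIs was above the 6573 of the other 42, so depth differed across this split. In the *Mrc1*+ macrophages *Ccl8* was 3.68-fold (3.28–4.14), or 2.45-fold without the cell that held 34.1% of its UMIs there, and *Cbr2* 4.49-fold (2.50–8.57) the level of the others. *Fn1*, which encodes fibronectin, was 3.74-fold (2.47–5.82) and *Stab1* 2.56-fold (1.71–3.91). *Cd274* was lower at 0.154-fold (0.0771–0.282), or 0.253-fold without the cell that held 40.2% of its UMIs in the others, and *Irf7*, the factor that amplifies interferon responses, at 0.361-fold (0.234–0.544). Markers of other cell types moved with this split too. T cell genes stood at 90.2 CPM in the *Mrc1*+ macrophages and 26.3 CPM in the others. Genes of a dendritic cell list (cDC2) stood at 87.5 CPM and 26.3 CPM and B cell genes at 41.0 CPM and 15.3 CPM. Natural killer cell genes stood at 19.1 CPM (7 UMIs) and 8.76 CPM (4 UMIs). Neutrophil genes went the other way, with 0 UMIs against 14, and the part of these markers in the split was not tested.

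*Ly6c2* or *Ccr2*, the monocyte genes, were found in 14 of the 74 macrophages, with a median of 5255 UMIs against 9414 in the other 60. The 14 also held fewer C1q UMIs, with a median of 10 against 36.5, and 1 of them had 3 C1q UMIs among 24874 UMIs. The part of the C1q level in this split was not tested. T cells held more of both genes than the macrophages, at 429 CPM of *Ly6c2* and 311 CPM of *Ccr2* against 74.9 CPM of each. The T cell list moved with this split, at 82.9 CPM in the 14 and 49.9 CPM in the 60, as did endothelial genes, at 58.0 CPM and 9.98 CPM. So did cDC2 genes, at 91.2 CPM and 47.0 CPM, B cell genes, at 49.7 CPM and 22.8 CPM, and natural killer cell genes, at 24.9 CPM and 11.4 CPM, and the part of these markers in the split was not tested. These 14 had more MHC class II RNA, with *H2-Aa* at 3.71-fold (3.32–4.14) and *Cd74* at 3.06-fold (2.87–3.27) the level of the others. *Trem2* was lower in them at 0.471-fold (0.303–0.703), or 0.505-fold without the cell that held 9.03% of its UMIs in the others. *Folr2* gave 0 UMIs in the 14 and 86 in the 60, and *Cbr2* 0 and 69, bounds of at most 0.203-fold and 0.253-fold. *Pf4* gave 22 UMIs in the 14, 54.5% of them in 1 cell, and was at 0.0808-fold (0.0505–0.123), or 0.0384-fold without that cell.

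The share of MHC class II genes in the UMIs of a macrophage ran from 0 to 6.12% with a median of 0.546%, and 4 macrophages lay within 10% of that median. It was a range without set classes, and the 37 macrophages above the median had a median of 6635 UMIs against 9435 in the 37 others. The macrophages above the median held all 94 UMIs of *Cxcl9*, from 10 cells, at least 46.8-fold the others. Endothelial genes moved with this split, at 36.4 CPM (12 UMIs) above the median and 4.06 CPM (2 UMIs) below. So did genes of the *Xcr1*+ dendritic cell list, at 182 CPM (60 UMIs) and 116 CPM (57 UMIs). Among them *Naaa* was 1.86-fold (1.18–2.94), or 1.33-fold without the cell that held 30.4% of its UMIs above the median. The cDC2 genes hardly differed, at 54.6 CPM and 52.8 CPM. The part of these markers in the split was not tested. *Cd86* was 4.73-fold (2.42–9.94) and *Cd40*, which receives help from T cells, 3.80-fold (1.83–8.46). *C3* was 9.85-fold (3.82–32.3) the level of the macrophages below the median. Lower in these macrophages were *Ctsd* at 0.472-fold (0.414–0.537), or 0.517-fold without the cell that held 21.0% of its UMIs in the others, *Pf4* at 0.257-fold (0.223–0.295) and *Cd36*, a scavenger receptor for oxidized lipids, at 0.268-fold (0.184–0.379). Of the 14 macrophages with *Ly6c2* or *Ccr2*, 11 were above the median. Across the 74 macrophages, which shared 1 library, the shares of 36 pairs of lists had Spearman correlations from -0.29 to 0.54. The highest were those of the lipid list with hypoxia, at 0.54, and with lysosomal genes, at 0.51, and the next was 0.32.

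The 15 highest ratios of the macrophages over the comparators belonged to *Ccl8*, *Igf1*, *Folr2*, *Ifnb1*, *Serpinb6a*, *Rrm2*, *Tk1*, *Pclaf*, *E2f1*, *Ms4a7*, *Mcm3*, *Mrc1*, *Cela1*, *Tpx2* and *Tipin*. Of these, *Folr2*, *Rrm2*, *Tk1*, *E2f1*, *Mcm3*, *Cela1*, *Tpx2* and *Tipin* had 1 UMI in the comparators and *Ifnb1* had 0. They passed the limit of 30 UMIs through the macrophages alone. In the *Mrc1* split, 1 cell held 62.5% of the *Rrm2* UMIs of the *Mrc1*+ macrophages and 1 held 82.4% in the others. For *Tk1* these were 54.3% and 92.3%. *Serpinb6a*, an inhibitor of serine proteases, gave 139 UMIs against 2, a ratio of 30.2 (8.22–252). The 15 lowest belonged to *Hbb-bs*, *Hba-a1*, *Hba-a2*, *Hbb-bt*, *Serpinb2*, *Ace*, *Itgal*, *Cxcl1*, *Inhba*, *Ifitm6*, *Plac8*, *Nr4a1*, *Dcstamp*, *Pglyrp1* and *Ly6c2*. The first 6 of these had at most 1 UMI in the macrophages and passed the limit through the comparators alone. *Itgal*, the integrin chain of LFA-1, had a ratio of 0.0687 (0.0237–0.164). Over T cells the macrophages had their highest ratios for *Ifnb1*, *Rnase2a*, *Gas6*, *Folr2*, *Cbr2*, *Ccl12*, *Pf4*, *Igf1*, *Ms4a7*, *Vcam1*, *Trem2*, *Plau*, *Mrc1*, *Retnla* and *Gdf15*. *Rnase2a*, an eosinophil-type ribonuclease, gave 38 UMIs in the macrophages, 84.2% of them in 1 cell, and its ratio over the comparators of at least 5.51-fold fell to a bound of 0.875 without it. Their lowest ratios over T cells were for *Cd8b1*, *Cd247*, *Trbc1*, *Ptprcap*, *Cd8a*, *Gzmb*, *Ctsw*, *Skap1*, *Camk4*, *Tnfrsf4*, *Pdcd1*, *Ctla2a*, *Spint2*, *Ccdc88c* and *Trbc2*.

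The 250 bases before the RefSeq start of *Ccl8*, *Ccl12*, *C1qb* and *C1qc* in GRCm38.p6 were read for GAGGAA, a core of sites bound by PU.1, or its reverse complement TTCCTC, a motif chosen after the values were seen. These 4 are shown because each held a match. Each held 1 match, shown in capitals. At least 1 match was found in 6 of the 11 promoters that the table held for macrophage markers, in 5 of 16 for the 15 genes with the highest ratios, and in 7639 of 32851 promoters of the genome, or 23.3%. A match describes the sequence and was not shown to be a bound site. The stretches lie at 82114935 to 82115184 and 82101595 to 82101844 of chromosome 11, on the plus strand, and at 136886201 to 136886450 and 136892915 to 136893164 of chromosome 4, on the minus strand.

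Ccl8 promoter: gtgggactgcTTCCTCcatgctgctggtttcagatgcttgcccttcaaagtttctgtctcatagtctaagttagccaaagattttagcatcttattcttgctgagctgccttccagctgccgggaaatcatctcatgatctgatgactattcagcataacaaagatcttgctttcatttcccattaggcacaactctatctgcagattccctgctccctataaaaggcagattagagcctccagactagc

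Ccl12 promoter: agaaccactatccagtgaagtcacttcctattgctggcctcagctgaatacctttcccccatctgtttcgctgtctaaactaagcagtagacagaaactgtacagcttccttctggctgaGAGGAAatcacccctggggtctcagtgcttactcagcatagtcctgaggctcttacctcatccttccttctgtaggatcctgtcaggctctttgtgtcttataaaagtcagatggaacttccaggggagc

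C1qb promoter: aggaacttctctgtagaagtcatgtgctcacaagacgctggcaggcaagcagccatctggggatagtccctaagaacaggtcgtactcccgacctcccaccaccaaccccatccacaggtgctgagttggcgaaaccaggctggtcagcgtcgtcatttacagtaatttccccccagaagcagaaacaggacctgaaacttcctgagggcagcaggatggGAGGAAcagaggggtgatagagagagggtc

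C1qc promoter: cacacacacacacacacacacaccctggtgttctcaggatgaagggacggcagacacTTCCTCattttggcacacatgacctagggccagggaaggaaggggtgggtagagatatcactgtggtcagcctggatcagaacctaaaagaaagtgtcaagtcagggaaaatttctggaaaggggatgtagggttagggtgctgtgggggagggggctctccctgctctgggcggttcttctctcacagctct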

How the data were processed

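The data were 5′ single-cell gene expression, hashtag and TCR libraries of 1 pool. Per the file headers and feature names, the deposited values were raw UMI counts from Cell Ranger (version 3.1.0 in the matrix header, 6.1.1 in the submitters' notes) on a combined mouse and human reference, with no normalization by the authors. Hashtag values were UMI counts per tag and TCR values UMI counts per contig. Of 14035 barcodes, 11756 were among the 19867 of the hashtag library and 6665 among the 7857 of the TCR table. Only the 31053 mouse genes were used. Cells with at least 200 detected genes and under 5% mitochondrial UMIs were kept, with no upper limit on genes and no caller of doublets. Ratios carry exact conditional binomial intervals, shares exact binomial intervals and levels Poisson intervals, for counting error only. No p-value was computed, because 1 library holds no replicates. A gene was tested with at least 30 UMIs in both groups together, mitochondrial genes and the genes of the choice left out, and a gene at 0 UMIs was set to a floor of 3 counts over the group to give a bound. For shares, each cell was thinned once to 1500 UMIs.

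From each of 37 lists (420 genes) the text names the most abundant genes, those the study names and those with the highest and lowest ratios, and beyond the lists 15 genes from each end of both comparisons. Other genes were named after their values were seen. The results of some genes are not reported here. The members and lists were chosen with earlier results of these data known. Positions are from GENCODE vM21 and promoters from RefSeq. Python 3.11.15, NumPy 2.4.6, SciPy 1.17.1, pandas 2.3.3 and matplotlib 3.10.9 were used, and the counting code was tested on simulated data.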

Additional observations from a re-analysis of the deposited data

Results flagged for a closer look

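UMIs were also seen on genes that no comparison used. The macrophages held 88 UMIs on the 33538 human genes of the combined reference, in 53 of 101 cells and at most 6 in a cell. This was 0.0105% (0.00839–0.0129) of their mouse UMIs. The *Csf1r* comparators held 34 such UMIs, or 0.00929% (0.00643–0.0130), and T cells 4713, or 0.0144% (0.0140–0.0148), so the interval of the macrophages overlapped that of the comparators and lay below that of T cells. The source of these UMIs was not tested.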

How the results depend on the processing

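Results were recomputed with several of the choices changed. The CD3 limit, the limit of at least 200 detected genes and the floor of 3 counts were not varied. Changes chosen after seeing the data were a depth limit of 1500 UMIs and leaving out 1 cell. That cell was the deepest macrophage, the hemoglobin-rich comparator or the cell with the most UMIs of a gene. The number of macrophages was 59 with at least 10 C1q UMIs, and 70 to 115 under the other limits. The 392 higher and 297 lower genes against the comparators became 1334 and 884 with no filter beyond 1 UMI, 88 and 95 with at least 100 UMIs, 841 and 687 at a fold of 1.5, and 76 and 91 with the interval also past 2, as more or fewer genes were tested or could pass. With at most 2500 detected genes, the limit of the study, 83 were higher, 47 of them among the 392, and the cause was not tested. Against T cells, the 1987 higher genes became 3069 with at most 2500 detected genes, 4795 with no filter and 1080 with at least 100 UMIs, and with the interval also past 2, 919 were higher and 869 lower. With at least 2 tag UMIs, 1 macrophage had a tumor tag. Of 141 genes followed, some ratios changed direction, and the cause was not tested. Over the comparators at most 2500 genes gave *Ccl2* 0.715 (from 1.12), *Cd36* 0.734 (from 1.45), *Fn1* 1.04 (from 0.596), *Gm42418* 1.02 (from 0.579), *Irf7* 1.17 (from 0.662) and *Plau* 0.908 (from 2.61). Averaging CPM over cells gave *Ccl2* 0.765, *Cd36* 0.975, *Fn1* 1.15 and *Gm42418* 1.13. *Ccl2* was 0.844 without its top macrophage and *Spp1* 1.05 (from 0.578) without its top comparator. Over T cells, at most 2500 genes gave *Plac8* 1.72 (from 0.726), *Rrm2* 0.646 (from 2.21) and *Tk1* 0.290 (from 2.18), and averaged CPM gave *Plac8* 1.58 and *Gm42418* 1.12 (from 0.667). With at most 2500 genes, 54 of 105 ratios over the comparators and 47 of 129 over T cells stayed within the first interval, and with averaged CPM 68 of 109 and 60 of 131. Over all alternatives, some of which changed no cell, these were 973 of 1186 and 994 of 1308. With averaged CPM, 1 iron gene, 1 transcription factor and 1 costimulatory gene were at least 2-fold higher and 2 costimulatory genes lower than in the comparators. Depth limits genes near 30 UMIs, where intervals are wide.

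The macrophages came from 1 pool sorted for T cells, so they need not represent the macrophages of these tumors, and mice, tumors and technical effects cannot be told apart. Counting intervals leave out variation among cells and animals. A few deep cells carry much of the summed UMIs, and for some genes single cells that are not deep carry much of the level. Doublets and free RNA were not modelled. The members were selected on C1q genes, which limits what their contrast with cells without C1q can show.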
